A study of Mus musculus with 30 samples.

Results

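Hippocampal RNA of mice fed a high dose (HD) of methylmercury was compared with that of mice fed a low dose (LD). The comparison holds 10 of the 30 libraries of the study, 5 HD and 5 LD, chosen by the treatment in their labels and not by any measured value. All mice were male and of the inbred BALB/c strain, arrived at 2 to 3 weeks of age, were housed singly, and ate AIN-93G purified feed for 11 weeks. The methylmercury was given as a complex with cysteine, at 0.28 mg per kg of feed for LD and 5 mg per kg for HD, and neither group received added selenium. The remaining libraries come from unexposed mice on cysteine-containing feed (Ctr) and from mice given the same 3 feeds with added selenium (Se_Ctr, Se_LD and Se_HD), 5 mice in each. Ctr gives the unexposed level and enters only alternative fits, while Se_HD against Se_LD repeats the dose contrast in other mice. Each library came from 1 mouse and is named below by its group and library number, so the p-values measure the spread between individual mice.

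Methylmercury is an organic mercury compound that passes from food into the brain and binds thiol and selenol groups of proteins. The hippocampus, a region for learning and memory, holds pyramidal and granule neurons, inhibitory GABA neurons, astrocytes, oligodendrocytes and microglia. Microglia are the resident macrophages of the brain and can turn on lysosomal, complement and phagocytic genes. Astrocytes support neurons and, when they become reactive, raise intermediate filament genes such as Gfap. These data are from whole tissue, in which more cells of a type and more RNA per cell cannot be told apart.

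Values are the normalized counts the authors deposited, that is reads per gene divided by a factor for the depth of the library. Reads on genes numbered 7133831 to 10783739 in the HD libraries and 7375942 to 11510521 in the LD libraries, with no difference detected between the groups (exact permutation test, two-sided, p = 0.325). The share of reads on mitochondrial genes ranged from 10.4% to 13.8% in HD and from 10.8% to 15.7% in LD (exact permutation p = 0.548). The ranges of the doses overlapped in both measures. The choroid plexus, a tissue that borders the hippocampus and is easily taken with it, varied widely: the normalized count of its marker Ttr was 353 in LD mouse 26 and 6424 to 27998 in the other 9 mice.

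Of 19047 genes tested, 2 (0.0105%) had an adjusted p below 0.05, C4b and Lyz2, and both were higher in HD (limma on log2(normalized count + 1), Benjamini-Hochberg adjustment). The count of 2 became 36 without HD mouse 27, 12 without HD mouse 15, 3 without HD mouse 21, 1 without LD mouse 2 and 0 without any other mouse. Another 12 genes had an adjusted p below 0.1, and all 14 were higher in HD. At an unadjusted p below 0.05, the threshold the study itself used, 1274 genes (6.69%) were called, 828 (4.35%) higher and 446 (2.34%) lower in HD. Of the called genes averaging 10 normalized counts or more, 154 were more than 2-fold higher in HD and 6 more than 2-fold lower. The calls at the unadjusted threshold are the basis of the counts given for gene groups below, and each has to be read against these background percentages. All 5 HD mice lay above all 5 LD mice in 170 genes (0.893%), and below them in 92 genes (0.483%).

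The genes with the lowest p-values among those higher in HD were C4b, Lyz2, C4a, Mpeg1 and Cd84. C4b encodes complement component 4, a blood and glial protein that tags material for removal (chromosome 17, 34865325 to 34880827, minus strand, NCBIM37). Its normalized count was 772, 1102, 492, 1573 and 519 in HD mice 3, 9, 15, 21 and 27, and 256, 184, 238, 160 and 187 in LD mice 2, 8, 14, 20 and 26. The lowest HD mouse was nearly 2 times the highest LD mouse, and the LD values lay within or below the Ctr range of 211 to 296. The mean was 891 ± 453 (SD, n = 5) in HD and 205 ± 40.3 (SD, n = 5) in LD, a log2 fold change of 1.99 ± 0.26 (SE, limma adjusted p = 0.0164). Leaving out any 1 of the 10 mice moved this fold change between 1.75 and 2.17.

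Lyz2 encodes lysozyme 2, a bacteriolytic enzyme of macrophages (chromosome 10, 116714390 to 116719377, minus strand, NCBIM37). It stood at 309, 372, 124, 538 and 146 in HD mice 3, 9, 15, 21 and 27, against 51.1, 53.5, 73.2, 50.2 and 63.3 in LD mice 2, 8, 14, 20 and 26. Its log2 fold change was 2.14 ± 0.32 (SE, limma adjusted p = 0.0429), and the groups did not overlap. With the sets of 6 consecutive library numbers as a block, its adjusted p was above 0.05. Mice 15 and 27 were the lowest HD mice for Lyz2, as they were for C4b. Of the 75-base windows in Lyz2 transcripts, 5.97% also occur in its neighbour Lyz1.

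C4a, the sex-limited copy of C4b, gave 74.7, 95.8, 87.4, 140 and 87.2 in HD against 44.4, 28.6, 48.1, 21.9 and 32.6 in LD, in the same order of mice. It was the most even of these genes among HD mice (log2 fold change 1.46 ± 0.23, SE, limma adjusted p = 0.063). All HD mice lay above the Ctr range of 41.57 to 60.85, and LD mice 8, 20 and 26 lay below it. Of the 75-base windows in C4a exons, 16.2% also occur in C4b exons, and of those in C4b exons 20.7% occur in C4a exons, so reads could be shared between the copies and both values are uncertain to that extent. Mpeg1, which encodes the pore-forming protein perforin-2 of macrophages, gave 862, 1480, 706, 1585 and 457 in HD against 227, 297, 274, 402 and 272 in LD (log2 fold change 1.66 ± 0.27, SE, limma adjusted p = 0.063). Cd84, an adhesion receptor of the SLAM family on immune cells, gave 50.6, 81.7, 26.9, 85.7 and 28.8 in HD against 12.6, 7.47, 13.6, 9.01 and 14.8 in LD (log2 fold change 2.04 ± 0.34, SE, limma adjusted p = 0.0691). For C4a, Mpeg1 and Cd84 every HD mouse was above every LD mouse, and HD mouse 21 was the highest of all 10 mice, as it was for C4b and Lyz2.

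The largest fold changes among genes whose groups did not overlap belonged to Cst7, Itgax, Ccl3, Gfap and C3ar1. Cst7 encodes cystatin F, an inhibitor of lysosomal proteases in immune cells, and gave 20.1, 36.7, 13.4, 62 and 1.75 in HD mice 3, 9, 15, 21 and 27. In LD it was 0.74 and 0.99 in mice 2 and 26 and 0 in the other 3, that is 2 reads in 5 libraries against 157 in HD. With so few reads in LD the fitted log2 difference of 3.83 ± 0.65 depends on the added 1 and is no measure of the true fold (limma adjusted p = 0.0691). Itgax, the integrin CD11c, gave 29.7, 90.8, 10.8, 75.9 and 7.85 in HD and 1.48 to 4.98 in LD (log2 fold change 3.02 ± 0.57, SE, limma adjusted p = 0.0976). Ccl3, a chemokine that attracts immune cells, gave 8.84, 50.8, 14.8, 23.7 and 2.62 in HD and 0 to 2.09 in LD (log2 fold change 3.01 ± 0.61, SE, limma adjusted p = 0.14). C3ar1, the receptor of complement fragment C3a, gave 79.6, 139, 69.9, 188 and 36.6 in HD and 4.94 to 28.3 in LD (log2 fold change 2.27 ± 0.45, SE, limma adjusted p = 0.123). HD mouse 27 was the lowest HD mouse for all 4 of these genes.

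Gfap, the intermediate filament protein of astrocytes, spread widely among the HD mice, with normalized counts of 7281, 12446, 5143, 32820 and 4080 in mice 3, 9, 15, 21 and 27. The LD mice lay together at 1623 to 2149, close to the Ctr range of 1430 to 1988. The lowest HD mouse thus had nearly 2 times the highest LD mouse, and HD mouse 21 more than 15 times. The log2 fold change was 2.28 ± 0.39 (SE, limma adjusted p = 0.0691).

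**Figure D1:**
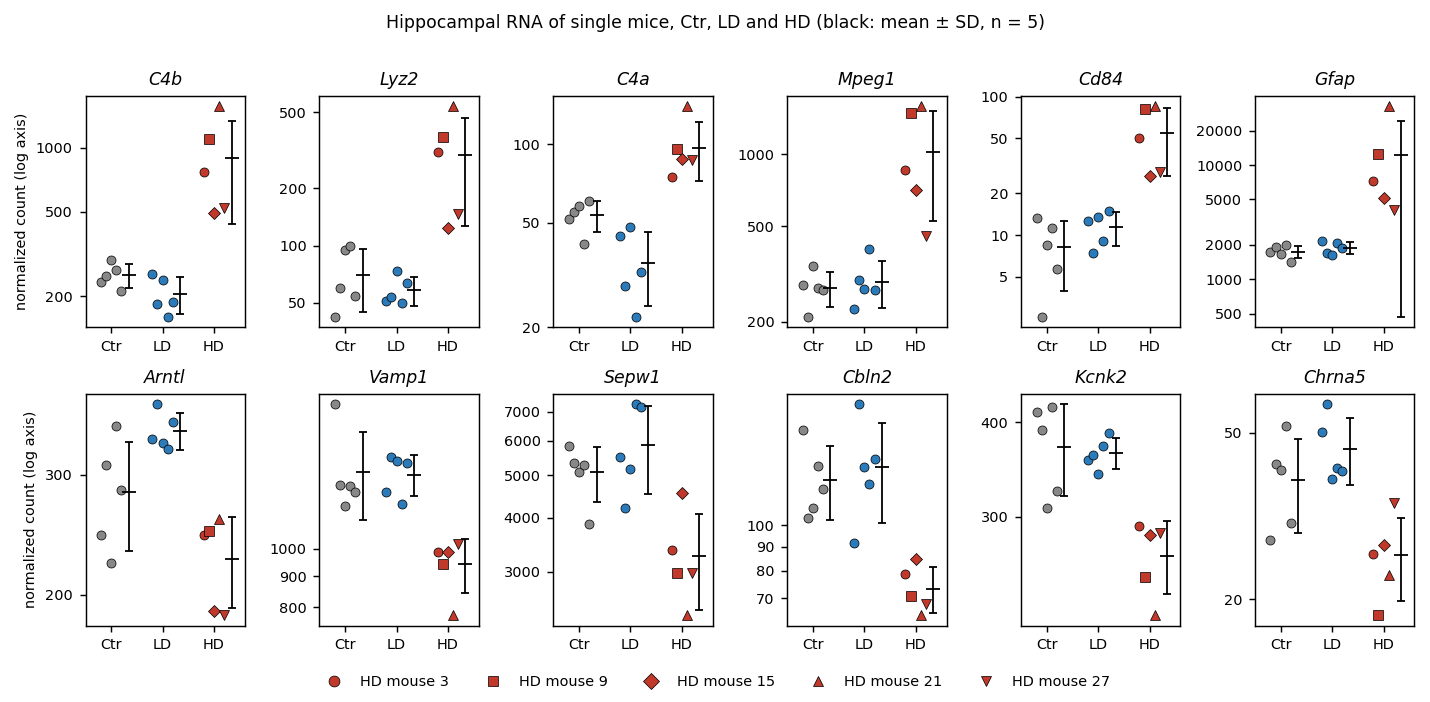
Normalized count (log axis) of 12 genes in each Ctr, LD and HD mouse, with the mean and SD of each group (n = 5) as black bars and a symbol of its own for each HD mouse. In the upper row the HD mice lie above the LD mice without overlap, with mouse 21 the highest; in the lower row they lie below them, with overlap only in Sepw1.

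The genes with the lowest p-values among those lower in HD were Arntl, Vamp1, Sepw1, Cbln2 and Kcnk2, and none of them had an adjusted p below 0.1 with limma. With DESeq2 their adjusted p-values ran from 0.00121 for Arntl to 0.0167 for Kcnk2, and with edgeR from 0.107 to 0.171. Leaving out HD mouse 15 brought Sepw1 to a limma adjusted p of 0.0386. Arntl encodes BMAL1, the activating partner of CLOCK in the circadian oscillator. It gave 245, 248, 190, 259 and 187 in HD mice 3, 9, 15, 21 and 27, and 339, 381, 334, 327 and 359 in LD mice 2, 8, 14, 20 and 26 (log2 fold change -0.63 ± 0.12, SE, unadjusted p = 7.92e-05, limma adjusted p = 0.101). The groups did not overlap, but the Ctr mice spanned 223 to 353 and so reached into both.

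Vamp1 encodes synaptobrevin 1, a vesicle protein that drives transmitter release. It gave 987, 943, 989, 776 and 1018 in HD against 1242, 1420, 1399, 1187 and 1390 in LD (log2 fold change -0.50 ± 0.10, SE, limma adjusted p = 0.143). All HD mice were also below the Ctr range of 1176 to 1738. Sepw1 encodes selenoprotein W, a small thioredoxin-like selenoprotein, and gave 3375, 2980, 4564, 2386 and 2980 in HD against 5499, 4198, 5183, 7285 and 7196 in LD (log2 fold change -0.85 ± 0.18, SE, limma adjusted p = 0.143). For Sepw1 the groups overlapped, HD mouse 15 being above LD mouse 8. The Ctr range of Sepw1 was 3858 to 5844, with HD mouse 15 inside it and LD mice 20 and 26 above it.

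Cbln2, a secreted protein that organizes synapses, gave 78.8, 70.8, 84.7, 64.5 and 68.1 in HD against 91.8, 180, 133, 122 and 138 in LD (log2 fold change -0.83 ± 0.17, SE, limma adjusted p = 0.146). Kcnk2, the potassium channel TREK-1, gave 292, 250, 284, 223 and 286 in HD against 356, 362, 342, 372 and 388 in LD (log2 fold change -0.45 ± 0.11, SE, limma adjusted p = 0.223). Neither gene overlapped between the doses. The largest decreases among non-overlapping genes also took in Chrna5, a nicotinic acetylcholine receptor subunit, at 18.3 to 34 in HD and 38.7 to 58.5 in LD, a log2 fold change of -0.83. Pdyn, the precursor of the opioid peptide dynorphin, stood at 16.3 to 39.3 in HD and 42.5 to 82.6 in LD, a log2 fold change of -0.76. These decreases stayed within 2-fold, where several of the increases above passed 4-fold. The genes described up to here as higher or lower in HD kept their direction and an unadjusted p below 0.05 in all 25 fits. These fits are the reported one, the alternative settings and the mouse removals.

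The stretches of 250 bases before the transcription start are shown for 3 of the macrophage genes above, for Vamp1, and for the metallothioneins Mt1 and Mt2, whose zinc- and cadmium-inducible promoters are the textbook case of a metal response. They come from RefSeq on GRCm38.p6, 5′ to 3′ on the strand of the gene, and the choice was made after the values were seen. Capitals mark the metal response element core TGCNCNC and the antioxidant response element core TGANNNNGC, searched on both strands, as was the PU.1 core GAGGAA.
Lyz2, chr10:117282273-117282522, minus strand: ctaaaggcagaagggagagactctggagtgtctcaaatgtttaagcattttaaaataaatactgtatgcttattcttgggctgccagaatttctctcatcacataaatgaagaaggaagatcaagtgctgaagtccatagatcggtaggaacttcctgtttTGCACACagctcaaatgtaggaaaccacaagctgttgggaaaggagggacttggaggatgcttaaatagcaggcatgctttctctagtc
Mpeg1, chr19:12460520-12460769, plus strand: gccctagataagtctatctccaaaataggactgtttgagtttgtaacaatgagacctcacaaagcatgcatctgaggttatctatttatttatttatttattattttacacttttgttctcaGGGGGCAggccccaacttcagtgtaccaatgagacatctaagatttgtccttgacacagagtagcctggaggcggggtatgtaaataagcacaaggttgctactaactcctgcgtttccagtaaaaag
Cd84, chr1:171839447-171839696, plus strand: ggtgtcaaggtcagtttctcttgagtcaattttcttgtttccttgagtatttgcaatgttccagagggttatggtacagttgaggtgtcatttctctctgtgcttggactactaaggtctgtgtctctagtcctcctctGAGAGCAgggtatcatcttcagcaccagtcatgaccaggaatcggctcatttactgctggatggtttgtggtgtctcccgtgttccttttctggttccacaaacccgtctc
Vamp1, chr6:125215331-125215580, plus strand: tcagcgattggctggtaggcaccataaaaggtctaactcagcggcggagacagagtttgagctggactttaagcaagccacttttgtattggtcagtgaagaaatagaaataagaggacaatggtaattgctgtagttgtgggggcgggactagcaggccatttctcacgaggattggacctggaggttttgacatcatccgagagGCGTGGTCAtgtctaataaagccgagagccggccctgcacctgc
Mt1, chr8:94178839-94179088, plus strand: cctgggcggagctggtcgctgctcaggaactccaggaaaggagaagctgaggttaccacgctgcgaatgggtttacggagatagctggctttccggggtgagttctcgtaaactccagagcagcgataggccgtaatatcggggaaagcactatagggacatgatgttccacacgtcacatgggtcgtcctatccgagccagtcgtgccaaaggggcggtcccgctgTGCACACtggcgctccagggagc
Mt2, chr8:94172368-94172617, plus strand: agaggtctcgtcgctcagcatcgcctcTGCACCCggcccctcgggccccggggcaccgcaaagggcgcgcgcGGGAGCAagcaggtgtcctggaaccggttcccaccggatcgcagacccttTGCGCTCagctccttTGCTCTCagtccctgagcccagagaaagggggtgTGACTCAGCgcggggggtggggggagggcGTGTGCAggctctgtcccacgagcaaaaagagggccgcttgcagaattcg
Lyz2, Mpeg1 and Cd84 each hold 1 metal response element core, Mt1 holds 1 and Mt2 holds 5, beside 1 antioxidant response element core in Mt2 and 1 in Vamp1. No core overlapped another. Of 32851 RefSeq promoters of this length, 44.4% hold at least 1 metal response element core and 0.344% hold 5 or more, so the single matches in the macrophage genes are common ones. The antioxidant response element core occurs in 35.2% of promoters and the PU.1 core, which none of these windows holds, in 23.3%. A match is a string of letters and shows no binding. The window of Arntl held none of the 3 cores.

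Of 16 homeostatic microglia genes, which mark these cells in the healthy brain, 9 were called higher and 0 lower, with a median log2 fold change of 0.54 beside 0.00395 over all genes. Csf1r, the receptor on which microglia depend for survival, gave 1162, 1511, 849, 1689 and 873 in HD mice 3, 9, 15, 21 and 27 against 655, 599, 677, 708 and 625 in LD mice 2, 8, 14, 20 and 26 (log2 fold change 0.84 ± 0.17, SE, limma adjusted p = 0.123). Every HD mouse was above every LD mouse, although 33.3% of the exon bases of Csf1r lie under Hmgxb3 on the opposite strand, whose reads could not be told apart without strand. Aif1, the microglial marker IBA1, gave 116, 184, 80.7, 255 and 72.4 in HD against 54.4 to 70.4 in LD (log2 fold change 1.06). Tmem119, a surface marker of resident microglia, gave 203, 308, 176, 242 and 177 in HD against 131 to 171 in LD (log2 fold change 0.53), with the lowest HD mice just above the highest LD mouse. Cx3cr1, the fractalkine receptor, was called higher with a log2 fold change of 0.55, and P2ry12, a purine receptor of surveying microglia, was not called at 0.27 (unadjusted p = 0.0876). Other called genes included Olfml3 (1.43), Fcrls (1.17), Itgam (1.00) and Gpr34 (0.77).

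Activated microglia genes, which rise when these cells meet damage, moved further. Of 20 genes, 15 were called higher and 0 lower, and the median log2 fold change was 1.51. Besides Lyz2, Mpeg1, Cd84, Cst7 and Itgax they included Cd68, a lysosomal glycoprotein of phagocytes, at 125, 258, 137, 243 and 69.8 in HD against 52.3 to 74.2 in LD (log2 fold change 1.26). HD mouse 27 alone overlapped the LD range for Cd68. Of 11 genes of Tyrobp and Fc receptor signalling, the adaptor pathway of microglial receptors, 10 were called higher with a median of 1.24. Tyrobp itself gave 173, 402, 190, 387 and 118 in HD against 57.2 to 91 in LD (log2 fold change 1.55 ± 0.28, SE, limma adjusted p = 0.0784), and its partner receptor Trem2 gave 186, 303, 90.1, 216 and 102 against 43.8 to 90 (log2 fold change 1.24). Trem2 in HD mouse 15 was only just above LD mouse 26. Fcer1g, the shared chain of activating Fc receptors, stood at 31.4 to 137 in HD and 13.7 to 30.6 in LD, and Fcgr1, the high-affinity IgG receptor, at 61.9 to 213 and 29.6 to 56, so neither overlapped.

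The complement list held 16 tested genes, of which 9 were called higher, 0 lower, and all had a positive log2 fold change (median 1.11). C1q, the protein that starts the classical pathway, is built from 3 chains. C1qa gave 470, 877, 398, 1227 and 343 in HD against 236 to 273 in LD (log2 fold change 1.22 ± 0.26, SE, limma unadjusted p = 0.000291), with no overlap. C1qb (1.34) and C1qc (1.33) were similar in size but overlapped, with HD mouse 27 inside the LD range of both. C3, the component on which the complement pathways meet, was lower in counts, at 50.6, 29.2, 14.8, 113 and 23.6 in HD against 8.37 to 23.2 in LD (log2 fold change 1.45). Clu, which encodes the complement inhibitor clusterin and is made by astrocytes, gave 10845, 8736, 8148, 10482 and 8221 in HD against 5384 to 6977 in LD (log2 fold change 0.54). Clu was among the most even of the group, HD mouse 3 being the highest. Itgam (1.00) and Itgb2 (1.35), which form complement receptor 3, were both called higher.

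Of 24 lysosome genes, 17 were called higher and 0 lower, with a median log2 fold change of 0.48. Ctss, a protease of microglial lysosomes, gave 804, 1172, 564, 1837 and 596 in HD against 401 to 507 in LD (log2 fold change 1.00), without overlap. Npc2, which carries cholesterol out of the lysosome, gave 775, 807, 732, 885 and 597 in HD against 493 to 596 in LD (log2 fold change 0.46), the lowest HD mouse lying at the level of the highest LD mouse. Cytokine and chemokine genes followed, with 10 of 18 called higher and 0 lower (median 0.96), most of them at low counts. Tgfb1 gave 26.2 to 45.7 in HD against 12.9 to 19.8 in LD (log2 fold change 0.97), and Csf1, a ligand of Csf1r, gave 138 to 311 against 116 to 125 (0.65). Both ranges were apart. Antigen presentation genes (4 of 14 called higher, median 0.41) and interferon response genes (4 of 17, median 0.62) had fewer calls. The cytokine list had 5 calls and a median of 0.64 without HD mouse 21 and 6 calls without HD mouse 9, and the antigen presentation list 2 without either, 6 without HD mouse 15 and 7 without HD mouse 27. In the interferon list HD mouse 21 carried much of the difference: Ifit1, an antiviral protein, was at 121 in that mouse and at 7.85 to 25 in the other 4 HD mice, against 3.95 to 10.4 in LD. Interferon calls numbered 1 without HD mouse 21, 1 without LD mouse 26, 2 without HD mouse 9 and 7 to 9 without HD mouse 3, 15 or 27. The interferon median was 0.31 without HD mouse 21 and 1.02 without HD mouse 27.

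Reactive astrocyte genes were higher in number and in size, with 14 of 20 called higher, 0 lower and a median log2 fold change of 1.22. Osmr, the oncostatin M receptor, gave 108, 166, 65.9, 388 and 63.7 in HD against 24.9 to 58.5 in LD (log2 fold change 1.70, unadjusted p = 0.000548). Gfap and Osmr were the only genes of the list without overlap between the doses. Vim, an intermediate filament like Gfap, was at 3548 in HD mouse 21 and at 190 to 440 in the other HD mice, against 153 to 235 in LD (log2 fold change 1.30). Timp1, a metalloproteinase inhibitor, was at 503 in HD mouse 21 and at 4.02 to 19.2 in the other HD mice, against 0 to 4.44 in LD (2.96). Cd44, a hyaluronan receptor, was at 1610 in HD mouse 21 and at 60.2 to 135 in the others, against 29.7 to 73.4 in LD (1.61). Without HD mouse 21 the list had 9 calls and a median of 0.58, whereas leaving out any other mouse gave 11 to 16 calls. Of 14 homeostatic astrocyte genes 6 were called higher (median 0.28), or 3 without LD mouse 8 or 26. Gjb6, the gap junction protein connexin 30, gave 495 to 637 in HD against 410 to 460 in LD (0.41), and the water channel gene Aqp4 was at 9364 in HD mouse 21 and 1529 to 3024 in the other HD mice against 1140 to 2031 in LD (0.92).

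**Figure D2:**
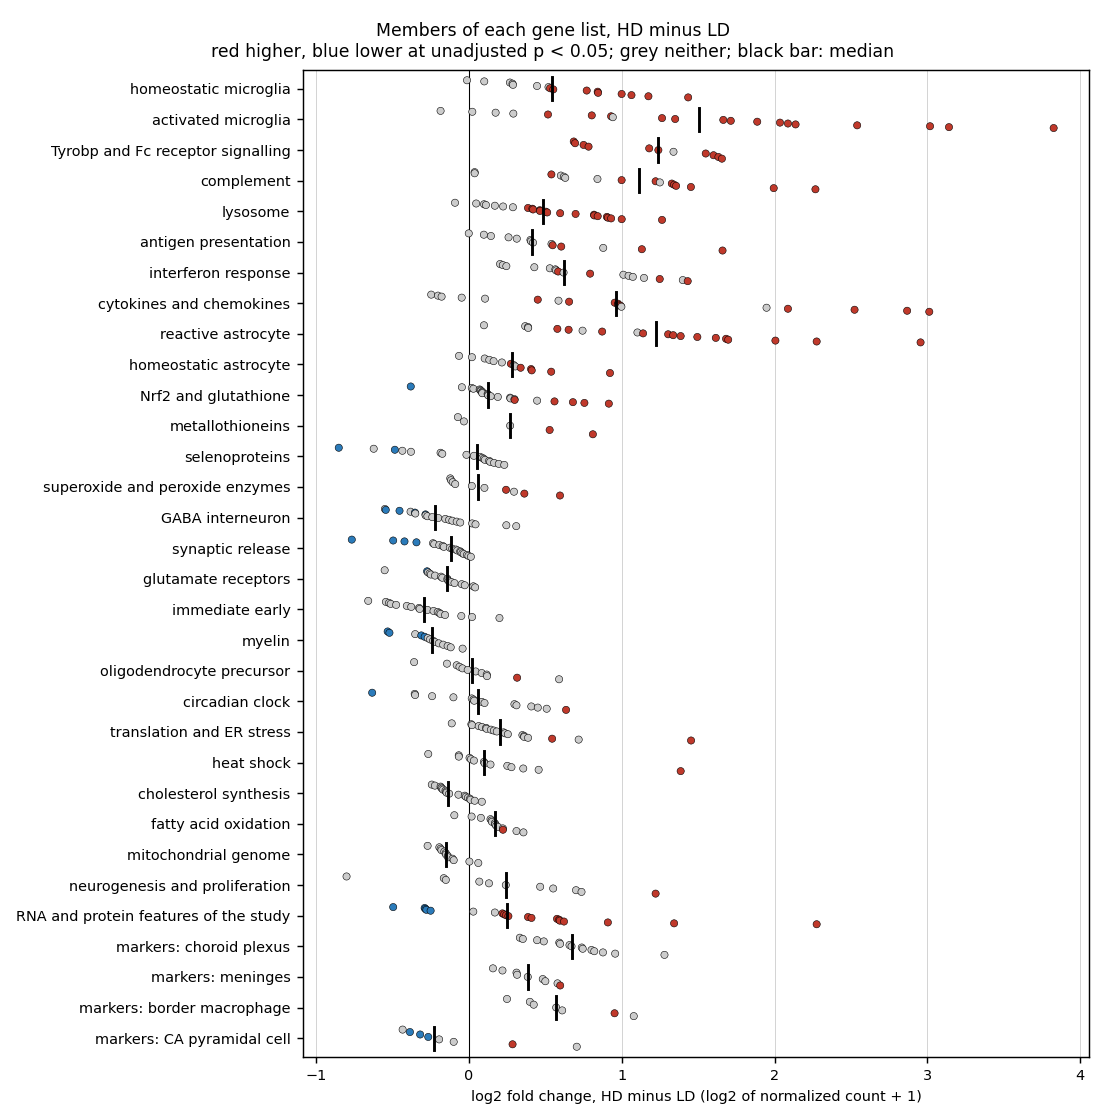
Log2 fold change (HD minus LD) of each tested member of the gene lists, 1 point per gene, red for genes higher and blue for genes lower in HD at an unadjusted p below 0.05, grey for the others, with the median of each list as a black bar. Microglia, complement, lysosome and reactive astrocyte members lie mostly to the right of 0, apart from 1 gene each in both microglia lists and the lysosome list, with medians from 0.48 to 1.51, and GABA interneuron, synaptic release and myelin members mostly to the left, with medians from -0.25 to -0.12.

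Genes of the response to oxidants and metals moved less as groups. Of 24 genes of the Nrf2 and glutathione system, 5 were called higher and 1 lower, with a median log2 fold change of 0.12. Nfe2l2, which encodes the transcription factor Nrf2 itself, gave 170, 198, 159, 263 and 167 in HD against 142, 82.1, 128, 120 and 93.9 in LD (log2 fold change 0.76). Ftl1, the ferritin light chain that stores iron, gave 612 to 883 in HD against 319 to 534 in LD (0.68), although 67.2% of its 75-base windows also occur in the pseudogene Gm10116. Slc7a11, the cystine importer, was called higher at 0.56 and Hmox1, the haem-degrading enzyme, at 0.91, both with overlap. Gstm1, a glutathione transferase, was at 1645 to 2282 in HD and 1348 to 1638 in LD (0.30). The gene called lower was Gss, glutathione synthetase, at 93.9 to 159 in HD and 140 to 187 in LD (-0.38), and no gene was called lower without HD mouse 21 or LD mouse 8.

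Metallothioneins are small cysteine-rich proteins that bind zinc, cadmium and mercury. Mt2 gave 1082, 1398, 975, 2615 and 940 in HD mice 3, 9, 15, 21 and 27 against 698, 696, 771, 603 and 966 in LD mice 2, 8, 14, 20 and 26, a log2 fold change of 0.81 ± 0.22 (SE, unadjusted p = 0.00229, limma). Only LD mouse 26 reached the HD range. Mt1 gave 1357, 2141, 1054, 2034 and 1208 in HD against 1217, 848, 959, 823 and 1484 in LD, a log2 fold change of 0.53 ± 0.20 (SE, unadjusted p = 0.0186, limma), with 2 LD mice inside the HD range. Of the 2 calls 1 was lost without HD mouse 9 or LD mouse 8 or 20. Mt3, the brain form, was not called (0.27, unadjusted p = 0.0772). Of 10 superoxide and peroxide enzymes 3 were called higher, the peroxiredoxins Prdx6 (0.60) and Prdx1 (0.36) and catalase, Cat (0.24). The median of these 10 genes was 0.06, or 0.16 without LD mouse 26 and 0.007 without LD mouse 8.

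Of 18 selenoproteins, enzymes and carriers that hold selenocysteine, a residue that binds mercury, 2 were called lower and 0 higher. These were Sepw1, described above, and Selm, an endoplasmic reticulum protein, at 161 to 288 in HD and 238 to 460 in LD (log2 fold change -0.49). Without LD mouse 20 the genes called lower numbered 4, and without LD mouse 26 only 1. The median of the list was 0.05, close to that of all genes.

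Neuronal and myelin lists leaned the other way, with small differences. Of 20 GABA interneuron genes 4 were called lower and 0 higher (median -0.22, or -0.13 without HD mouse 21 or LD mouse 26). Gad1, which makes GABA from glutamate, gave 1848, 2005, 1888, 2018 and 2269 in HD against 2518, 2494, 2674, 1978 and 2592 in LD (log2 fold change -0.28), the doses overlapping through LD mouse 20. Pvalb, the calcium buffer of fast-spiking interneurons, gave 181, 267, 456, 151 and 273 in HD against 315 to 414 in LD (-0.55), HD mouse 15 being the highest of all 10. Vip (-0.46), an interneuron peptide, and Kcnc2 (-0.35), a fast potassium channel, made up the 4, which became 2 without HD mouse 3 and 7 without HD mouse 9. Of 20 synaptic release genes 4 were called lower and 0 higher (median -0.12, or -0.23 without HD mouse 15 and -0.07 without HD mouse 9 or 21): Vamp1, Vamp2 (-0.34), the calcium sensor Syt2 (-0.77) and Cplx1 (-0.42), which clamps vesicle fusion. Syt2 gave 204, 168, 371, 120 and 264 in HD against 285 to 429 in LD, and mouse 15 was again the highest HD mouse. Of 17 glutamate receptor genes 1 was called lower, Grm2 (-0.27), which became 4 without HD mouse 15, 2 without HD mouse 9 and 0 without HD mouse 3 or 21 or LD mouse 14. Of 18 immediate early genes, which follow neuronal firing, none was called in either direction, though 9 were called lower without LD mouse 26. Thalamus markers, genes of a neighbouring region, were also lower in HD, with 9 of 10 negative, none called and a median of -0.44. Their summed level was 1131 to 2439 in HD and 1305 to 4800 in LD, LD mouse 8 being the highest, and without that mouse the median was -0.09. With the library number sets as a block 5 of these markers were called lower. Their part in the neuronal differences was not tested.

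All 14 myelin genes had a negative log2 fold change (median -0.25), of which 4 were called lower: Mal (-0.52), Opalin (-0.53), Mog (-0.31) and Tspan2 (-0.29). Mal, a membrane protein of compact myelin, gave 1140, 823, 967, 649 and 1157 in HD against 1241 to 1388 in LD, without overlap. The lists that follow had at most 2 calls in a direction, which is near the background. Of 12 genes of oligodendrocyte precursors 1 was called higher, Gpr17 (0.31), against 2 without LD mouse 14 and 0 without HD mouse 3, 9, 15 or 27 or LD mouse 8 or 26. Of 16 circadian clock genes Arntl was called lower and Bhlhe41, a clock repressor, higher, at 582 to 1279 in HD and 451 to 663 in LD (0.63). The clock genes called higher numbered 5 without HD mouse 21, 4 without LD mouse 14 and 2 without HD mouse 3 or LD mouse 8. Of the endoplasmic reticulum and translation stress genes 2 of 20 were called higher, Atf3 (1.45) and Pdia4 (0.54), of the heat shock genes 1 of 14, Hspb1 (1.39), and of the fatty acid oxidation genes 1 of 14, Hadha (0.22). Without LD mouse 2 both the endoplasmic reticulum stress list and the heat shock list had 5 genes called higher. The former had 4 without HD mouse 3 or 27 and 3 without HD mouse 9 or 15 or LD mouse 14 or 26. No heat shock gene was called higher without HD mouse 21 or LD mouse 26, and no fatty acid oxidation gene was called without HD mouse 3, 15 or 21 or LD mouse 2, 8, 14 or 26. None of 18 cholesterol synthesis genes and none of 13 genes of the mitochondrial genome was called. Among 11 genes of neurogenesis and proliferation the division marker Mki67 was called higher, at 188 in HD mouse 21 and 19.2 to 50 in the other HD mice against 14.6 to 21.2 in LD (1.22).

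A further list was made of features that the study had picked, in RNA and protein, by a variance test over Ctr, LD and HD. The LD and HD mice compared here entered that choice, so the list is no independent evidence of direction. Between HD and LD 13 of its 20 genes were called higher and 5 lower, the latter becoming 2 without HD mouse 9 and 3 without HD mouse 21 or LD mouse 8, 14 or 20. The higher calls fell to between 9 and 12 on leaving out any 1 mouse, with 9 without HD mouse 21 or LD mouse 14. Hrsp12, a deaminase that clears reactive enamines, gave 556, 629, 494, 481 and 477 in HD against 328, 325, 358 and 341 in LD mice 2, 14, 20 and 26 (log2 fold change 0.59 ± 0.11, SE, limma adjusted p = 0.0784). LD mouse 8 was the highest LD mouse and still below all HD mice. It was among the most even of the genes higher in HD, and mouse 21 was not its highest. Apoe, the main lipid carrier of the brain, was at 10819 to 17335 in HD and 8520 to 12607 in LD (0.41), and HD mouse 21 was the lowest HD mouse.

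Markers of cells that are not native to the hippocampal tissue were examined beside the microglia genes. Of 7 markers of border macrophages, which sit at vessels and meninges, 1 was called higher, Lyve1, and their summed level was 52.5 to 128 in HD and 47.7 to 112 in LD. The border macrophage markers called higher numbered 4 without HD mouse 15, 3 without LD mouse 8 and 0 without HD mouse 9 or 21 or LD mouse 14, 20 or 26. Of 10 monocyte and granulocyte markers 6 could be tested and 1, Ngp, was called higher, though not without HD mouse 3, 9 or 21 or LD mouse 2, 8, 14 or 26, and their summed level was 27.9 to 76.4 in HD and 28.3 to 48.4 in LD. Ccr2, the receptor that defines inflammatory monocytes, was at 12.1, 1.67, 0, 19.6 and 4.36 in HD mice 3, 9, 15, 21 and 27 and at 0 to 8.71 in LD. Of 12 lymphocyte markers only 3 had enough reads for a test and none was called, with summed levels of 22.7 to 36.3 in HD and 26.1 to 31.4 in LD. These 3 lists overlapped between the doses throughout.

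Of 15 choroid plexus markers none was called, with a summed level of 10030 to 45510 in HD and 1909 to 46240 in LD and a median log2 fold change of 0.67, which became -0.15 without LD mouse 26 and 1.15 without HD mouse 9. Of 9 markers of the meninges 1 was called higher, Ptgds, with sums of 7380 to 12270 in HD and 4279 to 9004 in LD. Without HD mouse 15 the meninges markers called higher numbered 4, without HD mouse 27 they numbered 2, and without HD mouse 3 or 9 or LD mouse 20 there were 0. None of 13 endothelial markers was called, or 2 without HD mouse 15 and 1 without HD mouse 3. Among neuronal markers, 3 of 8 genes of CA pyramidal cells were called lower, Mpped1 (-0.32), Spink8 (-0.39) and Wfs1 (-0.27), and Socs2 was called higher (0.28). Of these, none was called lower without LD mouse 26, 1 was called lower without HD mouse 3 or LD mouse 14, and no gene was called higher without HD mouse 9, 21 or 27 or LD mouse 2, 8, 14 or 20. In dentate granule cells Dsp was called lower (-0.45) among 7 genes, but not without HD mouse 9 or 21 or LD mouse 2, 8 or 20. The part of these levels in the differences above was not tested.

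HD mice differed more among themselves than LD mice did in several lists. Among genes that averaged 10 normalized counts or more, the SD of the log2 values was larger in HD for 53% of all genes, but for 18 of 18 activated microglia genes, 14 of 15 homeostatic microglia genes and 18 of 18 reactive astrocyte genes. It was also larger for 15 of 15 interferon, 10 of 10 Tyrobp and Fc receptor signalling, 23 of 24 lysosome and 12 of 13 complement genes. The same held for 15 of 16 circadian clock, 16 of 20 synaptic release and 14 of 17 glutamate receptor genes. In some other lists the SD was smaller in HD for most genes. It was larger in HD for 0 of 15 choroid plexus, 1 of 12 mitochondrial genome, 1 of 10 thalamus, 4 of 18 immediate early, 5 of 18 cholesterol synthesis and 5 of 12 oligodendrocyte precursor genes. Averaged over the activated microglia list, log2 values lay 0.38, 0.95, 1.38, 2.07 and 2.75 above the LD mean in HD mice 27, 15, 3, 9 and 21, while the LD mice stayed between -0.06 and 0.09. The reactive astrocyte list gave 0.38, 0.48, 0.89, 1.11 and 3.35 in the same order of mice, and the interferon list -0.06, 0.13, 0.32, 0.90 and 2.70. Mouse 21 was the highest of the HD mice in 17 of 18 reactive astrocyte, 15 of 15 interferon and 15 of 18 activated microglia genes, beside 27.7% of all genes. Mouse 27 was the lowest HD mouse in 12 of 18 activated microglia genes, beside 15.1% of all genes. In the synaptic release list mouse 21 was lowest, at -0.48, and mouse 15 was at 0.09, inside the LD range.

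**Figure D3:**
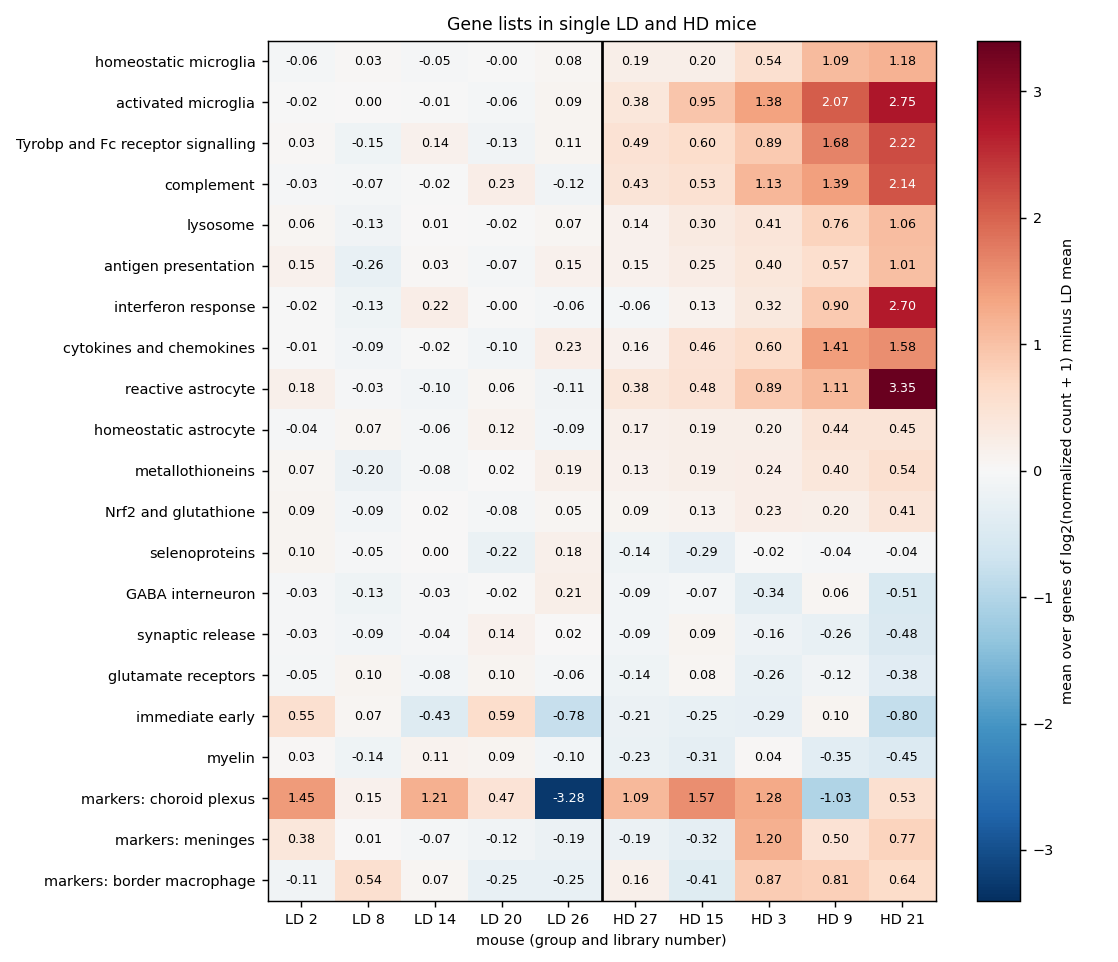
Mean over each gene list of log2(normalized count + 1) in single mice, minus the mean of the 5 LD mice, with LD mice left and HD mice right of the black line. HD mice are drawn in the order of their activated microglia values, from 0.38 in mouse 27 to 2.75 in mouse 21, and the choroid plexus row shows LD mouse 26 at -3.28.

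The same contrast of doses was available in selenium-fed mice, Se_HD against Se_LD, which shares no library with the mice above. There, 390 of 18763 genes (2.08%) were higher and 456 (2.43%) lower at an unadjusted p below 0.05, and 0 passed the limma adjustment, with 846 below 0.05 unadjusted, 0 by edgeR and 8 by DESeq2. C4b was at 335 to 437 in Se_HD and 189 to 296 in Se_LD, a log2 fold change of 0.70 against 1.99 without selenium. The difference between these fold changes, tested with limma as an interaction over the 20 libraries, had an unadjusted p of 0.000364. For Lyz2 the fold changes were 0.89 and 2.14 (limma interaction, unadjusted p = 0.0113), for Mpeg1 0.23 and 1.66 (unadjusted p = 9.33e-05), for Gfap 0.50 and 2.28 (unadjusted p = 0.000777) and for Tyrobp 0.01 and 1.55 (unadjusted p = 0.000135). These genes were named for their difference without selenium, and the interaction uses the same HD and LD libraries. Some of each gap and a low interaction p therefore follow from the choice. Across all genes 846 of 20503 (4.13%) had an interaction p below 0.05, and 0 passed the limma adjustment (0 by edgeR and 5 by DESeq2).

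By list, 15 of the 20 activated microglia genes, 14 of 24 lysosome genes, 8 of 16 complement genes and 6 of 20 reactive astrocyte genes had an interaction p below 0.05. The activated microglia median was 0.11 with selenium and 1.51 without, the complement median 0.21 and 1.11, and the reactive astrocyte median 0.19 and 1.22. The lists given here had many calls without selenium, and the same HD and LD libraries enter the interaction. Part of each gap therefore follows from the choice of lists. Some genes lower in HD had fold changes nearer to each other with and without selenium: Vamp1 at -0.37 and -0.50 (limma interaction, unadjusted p = 0.357), Syt2 at -0.60 and -0.77, Cbln2 at -0.50 and -0.83. Arntl was at -0.02 with selenium and -0.63 without (limma interaction, unadjusted p = 0.00922), and Sepw1 at -0.11 and -0.85 (unadjusted p = 0.0011). Tissue markers also moved in the selenium-fed mice: the thalamus markers had a median of -0.74 with 5 of 10 called lower in Se_HD, and the meninges markers a median of 1.03 with 8 of 9 called higher. The choroid plexus markers had the largest median of these, 1.67, with none called. Their part in the selenium-side values was not tested. Among the antigen presentation genes Cd74, the invariant chain of MHC class II, was called higher both with selenium (2.33) and without (1.66).

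Genes with non-overlapping doses, an unadjusted p below 0.05 and an average of 10 normalized counts or more numbered 198, of which 136 were higher and 62 lower in HD. Of the higher ones 135 were also tested in the selenium-fed mice, where 99 had the same direction and 14 of these an unadjusted p below 0.05. Their median log2 fold change was 0.87 without selenium and 0.10 with it, and 93 had an interaction p below 0.05. Because these genes were chosen for a clear difference without selenium, some of this gap follows from the choice. Of the 62 lower genes 47 had the same direction and 12 of these an unadjusted p below 0.05, with medians of -0.46 and -0.08, and 17 had an interaction p below 0.05. Over all 18424 genes tested in both contrasts 55.2% had the same direction. The genes called higher at both selenium levels numbered 68, or 8.21% of the calls without selenium and 17.4% of those with it, and those called lower 48, or 10.8% and 10.5%.

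**Figure D4:**
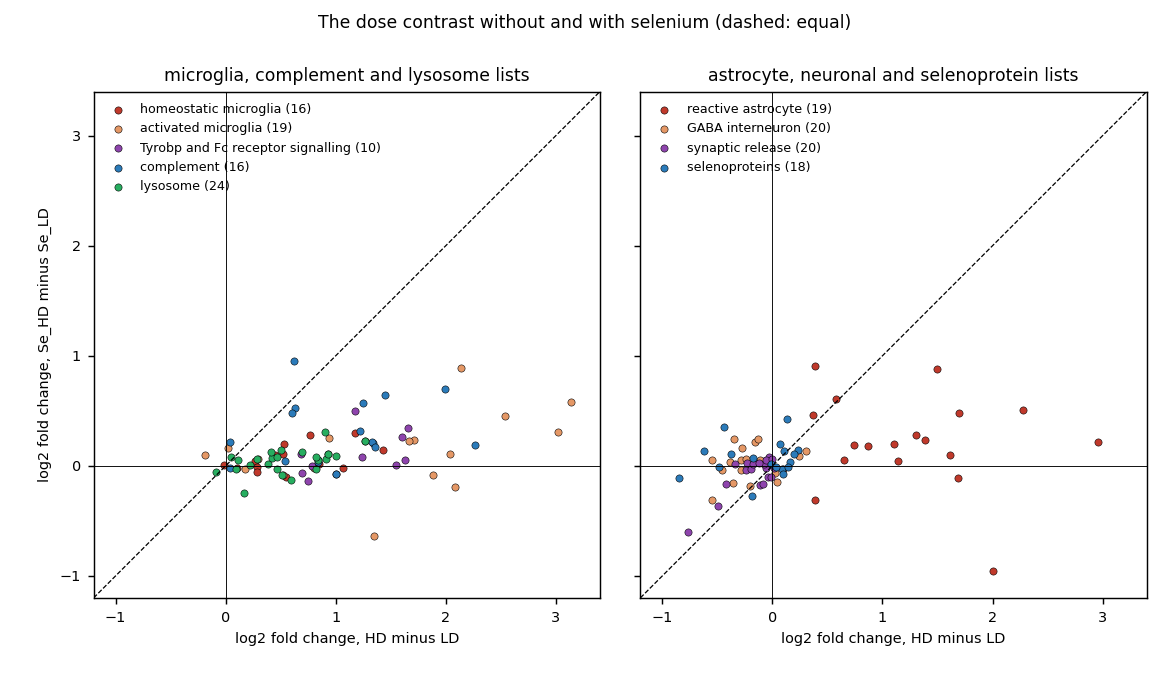
Log2 fold change between the methylmercury doses without selenium (horizontal axis, HD minus LD) and with selenium (vertical axis, Se_HD minus Se_LD), 1 point per gene, with the dashed line marking equal values. Glial genes reach 2 to 3 on the horizontal axis and stay mostly below 1 on the vertical axis.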

How the data were processed

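The data are mRNA sequencing libraries of whole mouse hippocampus, prepared with a stranded kit and sequenced single-end. The authors trimmed reads with Trim Galore 0.4.2, aligned them to NCBIM37 with HISAT2 2.0.4, counted them per gene with featureCounts and divided by DESeq2 1.18.1 size factors. The strand setting of the counting was not given in the sources used here. The deposited table holds these normalized counts, a signal that is whole reads over 1 factor per library: multiplied back, 100% of values were whole within 0.01. Of 21412 gene identifiers 21326 had a symbol.

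Differences were tested with limma 3.58.1 (trend and moderated variance) in R 4.3.3 on log2(normalized count + 1), in the 10 HD and LD libraries and on genes with a sum of at least 10 there, with Benjamini-Hochberg adjustment over all of them. Fold changes are on this scale, which understates those of low genes. The recovered reads were tested with edgeR 4.0.16 and DESeq2 1.42.0 as alternatives, beside other pseudocounts, filters, scalings and sample sets and the removal of each mouse in turn. Named genes were the 5 lowest p-values in each direction, the 5 highest and 5 lowest fold changes among non-overlapping genes called at the unadjusted threshold with a mean of at least 10, up to 4 members of each list by p, and members of the homeostatic microglia, complement, reactive astrocyte, metallothionein, peroxide enzyme and study feature lists. The members and lists were chosen with earlier results of these data known. The fits were tested on simulated data.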

Additional observations from a re-analysis of the deposited data

Results flagged for a closer look

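Samples far from the others of their group were sought with Dixon's ratio, the gap to the nearest sample over the range of the group, in 126 groups of 5 mice. It passed the critical value of 0.71 in 8 groups, where 6.3 would pass by chance. In HD, mouse 21 stood apart above the others in the reactive astrocyte list (ratio 0.752) and below them in Pdyn (0.85), where its normalized count was 16.3 and the other HD mice were at 35.8 to 39.3. HD mouse 15 had the lowest reads on genes, 7133831 (ratio 0.821). In LD, mouse 26 was low in the choroid plexus markers (0.726) and high in the cytokine list (0.73), at 0.23 above the LD mean. LD mouse 8 was high in the dentate granule cell markers (0.813), LD mouse 20 low in the endothelial markers (0.818) and LD mouse 2 high in the list of endoplasmic reticulum and translation stress (0.744).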

How the results depend on the processing

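The number of genes at an adjusted p below 0.05 depended on the method: 2 as reported, 126 with DESeq2 (116 higher, 10 lower, and 2632 genes without an adjusted p), 8 with edgeR, 10 with Ctr added to the fit, 141 with all 30 libraries in the fit, 1 with a mean of at least 10 required, 1 with a pseudocount of 0.1, 1 with a pseudocount of 10, and 0 with limma without a trend or with an ordinary per-gene model. Leaving out 1 mouse at a time gave 0 to 36, and the adjusted p ranged from 0.00245 to 0.166 for C4b and from 0.00245 to 0.239 for Lyz2. Their log2 fold changes stayed between 1.75 and 2.17 and between 1.87 and 2.40 over 25 fits, the reported one included. Genes at an unadjusted p below 0.05 numbered 1990 with all 30 libraries, against 1274. In the selenium-fed mice the 0 adjusted calls became 8 with DESeq2, 4 with the library number set as a covariate and 0 to 1 on leaving out a mouse, and the 0 calls of the interaction became 5 with DESeq2 and 0 to 4, the latter without HD mouse 27. The causes were not tested. List medians changed sign in some alternatives for selenoproteins, oligodendrocyte precursors and the choroid plexus, erythrocyte and lymphocyte markers, and for none of the microglia, complement, lysosome, reactive astrocyte, GABA, synaptic release or myelin lists. Activated microglia calls ranged from 11 to 17 and reactive astrocyte calls from 4 to 16. The labels give the mice no replicate numbers, so no design pairing was known. The library numbers fall into 5 sets of 6 consecutive numbers, each with 1 mouse of every group. With the set as a block, HD against LD had 3 genes at an adjusted p below 0.05 and 1164 at an unadjusted p below 0.05. C4b stayed called, Lyz2 did not, Mpeg1 and C3ar1 were called in addition, and 5 thalamus markers were called lower at an unadjusted p below 0.05. With 5 mice a dose and 7133831 to 11510521 reads on genes per library, low genes such as Cst7 and Ccl3 rest on few reads in LD.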

Other observations

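The remaining genes with an adjusted p below 0.1 (limma) were Cd14, Tlr2, Lag3 and Plin4, named here after their values were seen. Cd14 and Tlr2 encode surface proteins with which macrophages and microglia sense bacterial products. Cd14 gave 45.8, 83.3, 47.1, 86.5 and 27 in HD mice 3, 9, 15, 21 and 27 against 12.4 to 20.9 in LD, with a log2 fold change of 1.71 ± 0.30 (SE). Tlr2 averaged 52.3 ± 29.4 (SD, n = 5) in HD and 10.8 ± 5.55 in LD. Lag3, an inhibitory receptor first known from T cells, averaged 44.6 ± 18.1 in HD and 12.1 ± 4.16 in LD (SD, n = 5). Plin4, a coat protein of lipid droplets, averaged 102 ± 49.6 in HD and 29.5 ± 9.60 in LD (SD, n = 5). In each of the 4 genes all HD mice were above all LD mice.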
